A study of Sus scrofa with 19 samples.

Results

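The extracellular matrix of the porcine endometrium and the proteases that remodel it were described here through 33 genes. Members were all genes with an array probe whose RefSeq accession maps to a symbol of a collagen, laminin, matrix metalloproteinase (MMP), tissue inhibitor of metalloproteinases (TIMP1, TIMP3 or TIMP4), ADAM or ADAMTS protease, lysyl oxidase, fibulin, fibrillin, fibronectin, decorin, lumican, biglycan, versican, thrombospondin, SPARC protein, tenascin C, collagen hydroxylase or hyaluronan synthase. Of 35 such symbols, 33 had a probe well above background on at least 4 of the 19 arrays, among 3010 named genes and 39074 probes tested in all. The other 2, MMP17 and MMP20, were well above background on at most 2 arrays and were not tested. No probe was named here for a laminin, a fibulin, fibronectin or biglycan.

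The extracellular matrix is the meshwork around cells. Fibrillar collagens give it tensile strength, network collagens and glycoproteins organise it, proteoglycans and hyaluronan hold water and growth factors in it, and lysyl oxidase crosslinks it. MMPs and ADAMTS enzymes cut these proteins, and TIMPs block the MMPs. In the endometrium most of this matrix is made by stromal fibroblasts, and it is remodelled during the cycle and when an embryo signals its presence. In the pig, the conceptus attaches to the surface of the endometrium without eroding it, and its signals include estradiol and prostaglandin E2 (PGE2).

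Endometrium was taken from crossbred gilts (young female pigs) aged 8 months, whose uterine horns had been cannulated on days 8 to 9 of the cycle. In 6 treated gilts, a randomly chosen horn was infused with PGE2 (200 µg per infusion) and estradiol (E2, 33.3 µg per infusion), and the opposite horn with vehicle alone (5 mL saline with 1% ethanol), while in 4 control gilts both horns were infused with vehicle. Infusions were given at 4 h intervals for 24 h on days 11 to 12. The 19 one-colour arrays hold 6 hormone horns, 5 placebo horns (for gilt 40 the hormone horn alone was analysed) and 8 control horns, 4 marked L and 4 marked P, marks that the labels do not explain. All 5 placebo horns carry the mark L and their hormone horns the mark P, so that mark and infusion cannot be told apart within treated gilts. No pregnant gilts and no gilts given E2 alone were analysed here. The placebo horn shares its animal with a hormone horn, so it is an untreated horn of a treated gilt and not an untreated animal.

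A value is the log2 processed signal of a gene's brightest probe relative to the 75th percentile of its array, which is set at 0. Differences are on this log2 scale with their standard error (SE), so that a difference of 1 is a 2-fold change in signal, and levels of different genes are not compared because probes differ in brightness. A gene passed when the limma test adjusted by Benjamini-Hochberg over all 39074 probes gave a p under 0.05. Of the 33 genes, 29 were well above background on all 19 arrays. The exceptions were ADAM3A on 16 arrays, MMP12 on 12, COL19A1 on 5 and MMP1 on 4. The tissue label was checked against the epithelial markers EPCAM and KRT8 and the stromal marker THY1, each well above background on all 19 arrays.

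In hormone horns against control gilts, 12 of the 33 genes (36.4%) passed, 11 of them higher and 1 lower. By brightest probe, ADAMTS8 (6.83-fold) and COL8A1 (3.43-fold) were higher by the most among the genes well above background on all 19 arrays. They were followed by LOX, VCAN, COL5A1, FBN1, COL1A2, COL5A3, COL10A1 and MMP2, and SPARCL1 was lower. MMP12 passed too, but it was well above background on 2 of 8 control horns and was tested because the treated horns brought it past the filter. With probes well above background on all arrays alone 11 genes passed, 10 of them higher. Dimmer probes of THBS1 passed at 2.22 to 2.27 and of TIMP1 at 1.82 and 1.86, above the 1.78 of COL8A1. With the mean of all probes of a gene 16 of the 33 passed, 15 of them higher, where 3805 of 35638 tested values passed. As background, 15.1% of the 3010 named genes passed in this comparison (12.7% higher and 2.46% lower), as did 11.7% of all probes (6.72% higher and 4.93% lower). The median difference over the 33 genes was 0.40, against 0.17 over the named genes and 0.01 over all probes, and 29 of the 33 values were above 0, against 65.7% of named genes. By brightest probe, all 6 hormone horns lay above all 8 control horns in 5 genes (ADAMTS8, COL10A1, FBN1, MMP12 and VCAN), a pattern seen in 7.77% of named genes. By that probe they all lay below in none of the 33 (1.33% of named genes). On a dimmer SPARCL1 probe they did, with hormone horns at most 2.66 and control horns at least 2.68. Dimmer probes of ADAM17, DCN, LUM and P4HA1 had all hormone horns above all control horns. Endometrium is a mixture of cells, and in such bulk samples more cells of a type and more RNA per cell cannot be told apart.

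**Figure D1:**
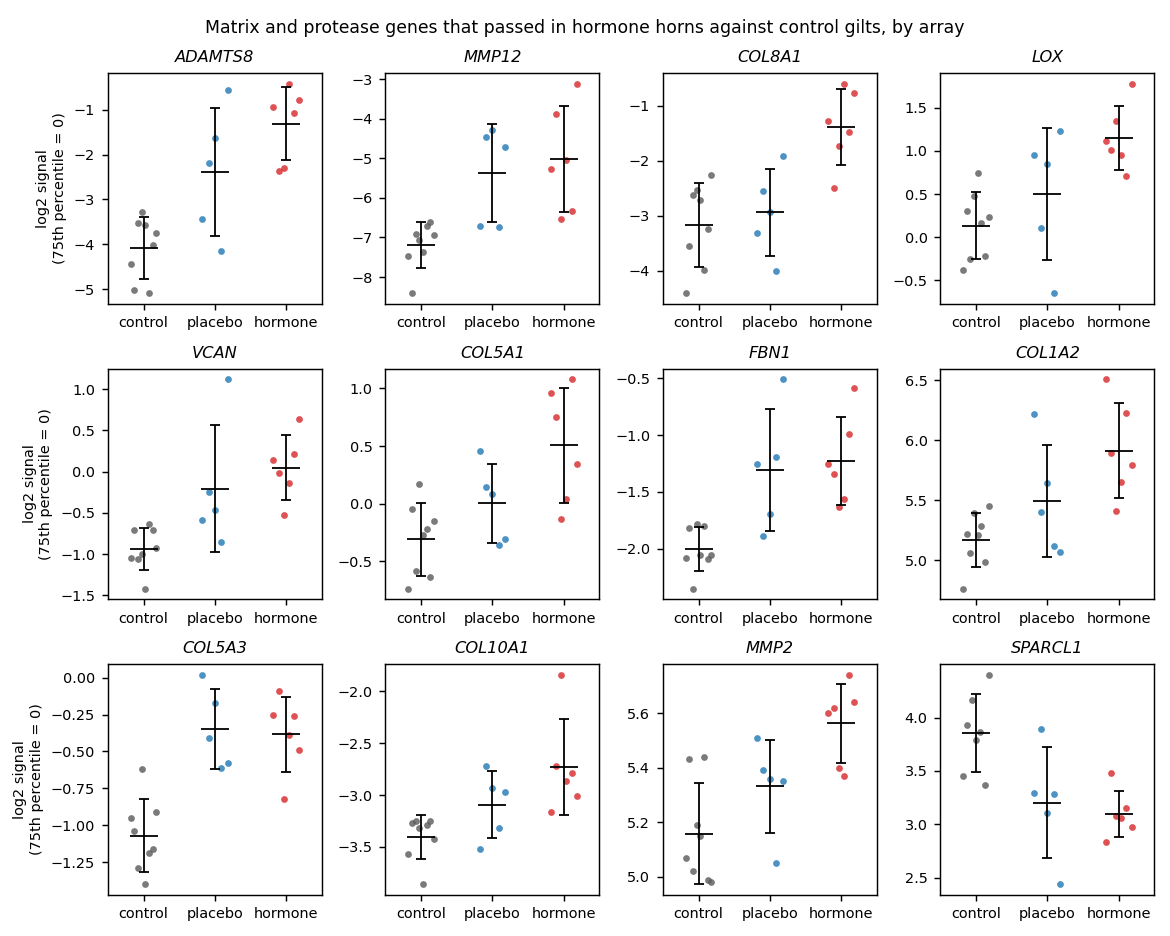
Log2 signal of the 12 genes that passed in hormone horns against control gilts, 1 point per array, for 8 control horns (SPARCL1 7), 5 placebo horns and 6 hormone horns, with mean and SD in black and a separate scale for each gene. The mean of hormone horns stands above that of control horns in 11 genes and below it in SPARCL1. The 2 groups do not overlap in ADAMTS8, COL10A1, FBN1, MMP12 and VCAN, and they overlap in the others. The mean of placebo horns lies near the control mean in COL8A1 and near the hormone mean in COL5A3.

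The calls depended on single gilts, above all on gilts 9, 14 and 28 of the 4 control gilts. Without gilt 9, 14 or 28, 1, 2 and 1 of the 33 genes passed, and without gilt 46, 8 did, while the probes passing overall went from 4554 to 1753, 1454, 1624 and 3829. Leaving out a treated gilt left 8 genes passing without gilt 36, 5 without gilt 38, 11 without gilt 40, 11 without gilt 41, 6 without gilt 44 and 11 without gilt 47. In the same order, 5285, 4343, 3809, 4138, 2873 and 4871 probes passed overall. Without gilt 36 fewer of the 33 genes thus passed, but more probes did. All 12 differences kept their direction in all 10 of these fits, and ADAMTS8 alone passed in every one. The arrays were scanned on 3 days, with 1, 2 and 1 control gilts against 2 treated gilts a day. All 12 differences had the same direction on each day. Since the 12 genes were picked for their differences on these same arrays, unchanged direction adds no independent support. The 33 genes' median difference was 0.75, 0.24 and 0.42 on days 1, 2 and 3. Centring each array on its RefSeq-named probes in place of the 75th percentile lowered the named genes' median from 0.17 to -0.10 and the 33 genes' median from 0.40 to 0.13. On that scale 5 of the 33 genes passed, 3 higher (ADAMTS8, COL8A1 and MMP12) and 2 lower (SPARCL1 and MMP11). Fewer of the 33 genes thus passed, while the probes passing rose from 4554 to 7880 of 39074. Of the probes that passed, 14.3% were higher, against 57.7% on the main scale.

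**Figure D2:**
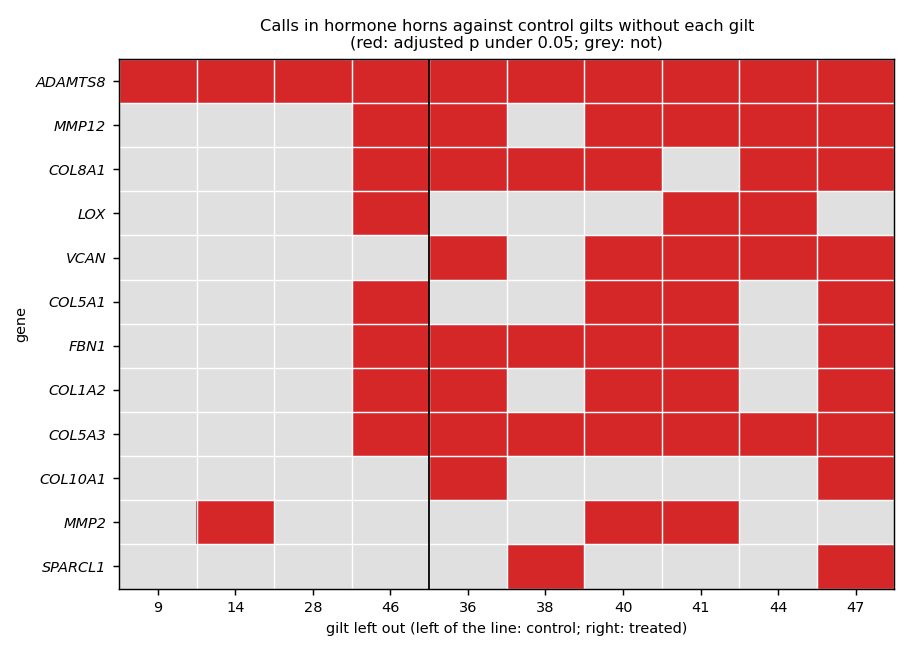
Whether each of the 12 genes still passed in hormone horns against control gilts when a gilt was left out with both its horns; red cells mark an adjusted p under 0.05 and grey cells a higher one. The column for gilt 28 is red for ADAMTS8 alone, and the row of ADAMTS8 is red throughout.

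The fibrillar collagens build the stromal fibres, with type I as the bulk collagen and type V as the collagen that nucleates and limits fibre diameter. Of 4 measured, 3 passed higher in hormone horns against control gilts, and the median difference of the 4 was 0.72. COL1A2, a chain of type I collagen, read 4.76 to 5.45 (median 5.22) in control horns and 5.41 to 6.51 (median 5.84) in hormone horns. The placebo horns of gilts 36, 38, 41, 44 and 47 read 6.22, 5.40, 5.64, 5.12 and 5.07. Of the 6 hormone horns, 5 lay above the highest control horn, gilt 36 being the highest in both its horns. Against control gilts the difference was 0.74 ± 0.21 (SE; adjusted p = 0.0289), or 1.68-fold, and that of placebo horns was 0.27 ± 0.22 (adjusted p = 0.472).

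COL5A1, the main type V chain, read -0.74 to 0.17 (median -0.25) in control horns, 0.46, 0.14, 0.08, -0.36 and -0.31 in the placebo horns of gilts 36, 38, 41, 44 and 47, and -0.13 to 1.08 (median 0.54) in hormone horns. The groups overlapped, with 4 of 6 hormone horns above every control horn and gilt 44 highest. Set against control gilts, it differed by 0.82 ± 0.25 (adjusted p = 0.0396), or 1.76-fold, while its 2 other probes gave 0.13 and 0.71 and did not pass. COL5A2, another type V chain, gave a similar difference of 0.56 ± 0.21 that did not pass (adjusted p = 0.0871), and 1 of its 3 other probes passed, at 0.80 (adjusted p = 0.0321).

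By brightest probe COL5A3, the third type V chain, was the only one of the 33 that passed in both horns of the treated gilts. Dimmer probes of ADAM17, LUM, P4HA1 and THBS1 also passed against control gilts in both horns. COL5A3 read -1.40 to -0.62 (median -1.10) in control horns and -0.82 to -0.09 (median -0.32) in hormone horns. The placebo horns of gilts 36, 38, 41, 44 and 47 read 0.02, -0.41, -0.17, -0.61 and -0.58. All 5 placebo horns and 5 of 6 hormone horns were above the highest control horn, though the lowest placebo horn, at -0.61, was next to that control horn, at -0.62. The difference from control gilts was 0.69 ± 0.17 in hormone horns (adjusted p = 0.0142) and 0.68 ± 0.17 in placebo horns (adjusted p = 0.0355). Between the horns of treated gilts it was 0.01, with a 95% confidence interval of -0.23 to 0.26.

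Outside the fibrillar class 3 collagen genes were measured, and COL8A1 and COL10A1 passed higher in hormone horns. COL8A1 encodes a chain of type VIII collagen, a short network collagen of vessel walls and basement membranes. It read -4.41 to -2.26 (median -2.98) in control horns and -2.49 to -0.60 (median -1.37) in hormone horns, where 5 of 6 lay above every control horn. The placebo horns of gilts 36, 38, 41, 44 and 47 read -3.31, -2.56, -2.93, -4.00 and -1.91, within the control range except gilt 47. Against control gilts the difference was 1.78 ± 0.48 (adjusted p = 0.0242), or 3.43-fold, in hormone horns and 0.19 ± 0.49 (adjusted p = 0.851) in placebo horns.

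COL10A1, another short network collagen best known from growth-plate cartilage, read -3.86 to -3.25 (median -3.30) in control horns, -3.52, -2.72, -2.93, -3.32 and -2.97 in the placebo horns of gilts 36, 38, 41, 44 and 47, and -3.16 to -1.84 (median -2.83) in hormone horns. The hormone horn of gilt 40, at -1.84, stood apart from the other 5, which were at most -2.72. Set against control gilts, COL10A1 differed by 0.68 ± 0.20 (adjusted p = 0.0364). Without gilt 40 the difference was 0.50 and did not pass. Of the 10 fits that left out a gilt, COL10A1 passed in 2, so its call did not rest on gilt 40 alone. COL19A1, a fibril-associated collagen, was well above background on 5 of 19 arrays and its levels were not compared.

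Of the 5 matrix glycoproteins, FBN1 passed higher and SPARCL1 lower. FBN1 encodes fibrillin 1, the backbone of microfibrils that also tether latent TGF-beta. It read -2.35 to -1.78 (median -2.05) in control horns, -1.25, -1.89, -1.69, -1.19 and -0.51 in the placebo horns of gilts 36, 38, 41, 44 and 47, and -1.63 to -0.59 (median -1.30) in hormone horns. All 6 hormone horns and 4 of 5 placebo horns were above every control horn. The difference from control gilts was 0.78 ± 0.20 in hormone horns (adjusted p = 0.0200) and 0.65 ± 0.21 in placebo horns (adjusted p = 0.0713), and all 3 FBN1 probes passed in hormone horns.

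SPARCL1, or hevin, a secreted relative of SPARC that binds collagen, was the single gene of the 33 that passed lower. It read 3.37 to 4.4 (median 3.86) in 7 control horns, the L horn of gilt 9 having been dropped for an outlier flag. It read 3.29, 3.89, 3.11, 3.28 and 2.44 in the placebo horns of gilts 36, 38, 41, 44 and 47 and 2.84 to 3.48 (median 3.07) in hormone horns. Of the 6 hormone horns, 5 were below the lowest control horn, as were 4 of 5 placebo horns. Against control gilts the difference was -0.75 ± 0.23 (adjusted p = 0.0464) in hormone horns, 1.68-fold lower, and -0.65 ± 0.24 (adjusted p = 0.118) in placebo horns. All 7 SPARCL1 probes gave differences between -0.58 and -0.77, and 4 of them passed.

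SPARC itself, a collagen chaperone, gave 0.54 ± 0.27 (adjusted p = 0.211). Its 2 highest arrays were the hormone horn of gilt 36 at 6.90 and the placebo horn of the same gilt at 6.54, against 4.88 to 5.74 in control horns. TNC, tenascin C, a glycoprotein induced in remodelling tissue, gave 0.82 ± 0.75 (adjusted p = 0.514), with 1 hormone horn (gilt 40) dropped for an outlier flag. Its spread lay among the control horns too, where gilt 9 read -3.32 in the L horn and -0.05 in the P horn.

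THBS1, thrombospondin 1, which activates latent TGF-beta and restrains new vessels, gave different sizes by probe. Its brightest probe, the one that stands for the gene here, read 1.59 to 1.79 in control horns, 1.74, 2.03, 1.97, 1.63 and 1.86 in the placebo horns of gilts 36, 38, 41, 44 and 47, and 1.72 to 2.34 in hormone horns, a difference of 0.33 ± 0.13 that did not pass (adjusted p = 0.112). Its 5 other probes gave 2.22 to 2.32, and 4 of them passed (adjusted p from 0.0255 to 0.0684 over the 5). In placebo horns against control gilts the 5 gave 2.00 to 2.45, and 1 passed (adjusted p = 0.0430). On 1 of the 5, the values were -1.44 to 1.13 in control horns, 0.15, 2.54, 2.91, -0.26 and 4.13 in the placebo horns of gilts 36, 38, 41, 44 and 47, and 0.64 to 3.66 in hormone horns. Placebo horns of gilts 38, 41 and 47 were high on it and those of gilts 36 and 44 were in the control range. Gilts 36 and 44 were the treated gilts scanned on day 1, so gilt and scan day cannot be told apart in this split.

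**Figure D3:**
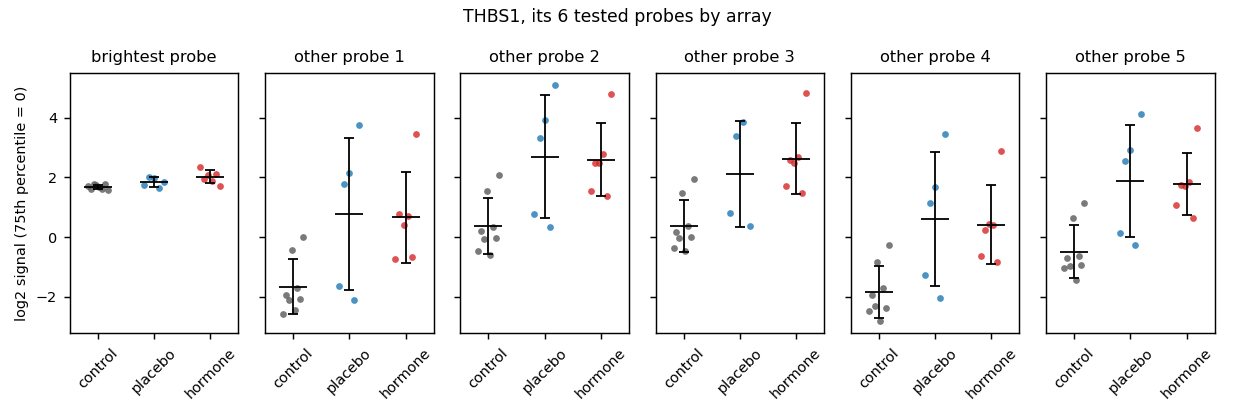
Log2 signal of the 6 tested THBS1 probes, 1 point per array, by group, with mean and SD in black. The brightest probe spans 1.59 to 2.34 over all arrays, while in each of the 5 others the hormone horn of gilt 47 is the highest hormone horn.

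Proteoglycans and hyaluronan synthases counted 5 genes, of which VCAN passed. VCAN encodes versican, a large hyaluronan-binding proteoglycan of loose, hydrated matrix. It read -1.42 to -0.63 (median -0.96) in control horns, -0.59, -0.25, -0.46, -0.85 and 1.12 in the placebo horns of gilts 36, 38, 41, 44 and 47, and -0.53 to 0.64 (median 0.06) in hormone horns. All 6 hormone horns and 4 of 5 placebo horns lay above every control horn, and the placebo horn of gilt 47 was the highest array of all. Set against control gilts, it differed by 0.99 ± 0.28 (adjusted p = 0.0295), or 1.99-fold, in hormone horns and 0.67 ± 0.29 (adjusted p = 0.167) in placebo horns.

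DCN, decorin, a small proteoglycan that coats collagen fibrils and binds TGF-beta, read 6.89 to 7.49 (median 7.33) in control horns, 7.44, 7.59, 7.44, 7.31 and 7.46 in the placebo horns of gilts 36, 38, 41, 44 and 47, and 7.35 to 8.02 (median 7.68) in hormone horns. The difference in hormone horns was 0.38 ± 0.14 (adjusted p = 0.0789), and 1 of its 3 other probes passed at 0.57 (adjusted p = 0.00606). LUM, lumican, of the same family, gave 0.27 ± 0.15 (adjusted p = 0.269), and 2 of its 8 other probes passed. DCN and LUM are neighbours in the RefSeq table of Sscrofa11.1, with 0 coding genes between them. The hyaluronan synthases HAS1 and HAS3 gave -0.08 ± 0.72 and 0.11 ± 0.44, with HAS1 dropped on the hormone array of gilt 40 for an outlier flag. HAS3 was far above the other treated horns in both horns of gilt 44, at -0.94 in placebo and -0.73 in hormone, against -3.41 to -2.60 in control horns.

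LOX, lysyl oxidase, which crosslinks collagen and elastin, passed higher in hormone horns. It read -0.38 to 0.74 (median 0.19) in control horns, 0.95, 0.11, 0.85, -0.65 and 1.23 in the placebo horns of gilts 36, 38, 41, 44 and 47, and 0.71 to 1.78 (median 1.06) in hormone horns. Of the 6 hormone horns, 5 were above every control horn, the highest of which was the P horn of gilt 9 at 0.74. The difference from control gilts was 1.02 ± 0.30 (adjusted p = 0.0363), or 2.03-fold, in hormone horns and 0.39 ± 0.31 (adjusted p = 0.470) in placebo horns. P4HA1, a catalytic subunit of the prolyl hydroxylase that stabilises the collagen helix, gave 0.27 ± 0.14 on its brightest probe (adjusted p = 0.212). Of its 6 other probes, 4 passed in hormone horns, at 0.68 to 0.76, and 5 passed in placebo horns, at 0.58 to 1.00.

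Of 7 matrix metalloproteinases, MMP12 and MMP2 passed, both higher in hormone horns. MMP12, the elastase of macrophages, read -8.41 to -6.60 (median -7.00) in control horns and -6.53 to -3.11 (median -5.15) in hormone horns. The placebo horns of gilts 36, 38, 41, 44 and 47 read -6.72, -4.46, -4.28, -6.73 and -4.70. It was well above background on 2 of 8 control, 5 of 5 placebo and 5 of 6 hormone horns, and the lowest hormone horn lay 0.07 above the highest control horn. The fitted difference was 2.16 ± 0.57 (adjusted p = 0.0222) in hormone horns and 1.65 ± 0.59 (adjusted p = 0.104) in placebo horns. Its size is set by control signals of which 6 of 8 were not well above background. With normexp background correction (offset 50) the hormone difference was 0.45 and did not pass (adjusted p = 0.127).

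MMP2, gelatinase A, made by stromal cells, read 4.98 to 5.44 (median 5.11) in control horns, 5.51, 5.39, 5.36, 5.05 and 5.35 in the placebo horns of gilts 36, 38, 41, 44 and 47, and 5.37 to 5.74 (median 5.61) in hormone horns. The change was small, 0.40 ± 0.12 (adjusted p = 0.0389) or 1.32-fold, and 4 of 6 hormone horns exceeded every control horn. The other MMP2 probe gave 0.45 and did not pass (adjusted p = 0.0516). MMP2 passed in 3 of the 10 fits that left out a gilt and in 1 of 4 alternative scalings. MMP14, the membrane enzyme that activates MMP2, gave 0.32 ± 0.17 (adjusted p = 0.219).

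MMP11, stromelysin 3, was the metalloproteinase with a value below 0. It read -1.80 to -0.90 (median -1.21) in control horns, -1.19, -2.45, -2.30, -1.51 and -2.16 in the placebo horns of gilts 36, 38, 41, 44 and 47, and -2.66 to -1.66 (median -1.98) in hormone horns, 4 of which lay below every control horn. The difference of -0.74 ± 0.26 did not pass (adjusted p = 0.0699), and it passed when arrays were centred on RefSeq-named probes (-1.01, adjusted p = 0.0241).

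MMP1, interstitial collagenase, was well above background on 0 of 8 control, 2 of 5 placebo and 2 of 6 hormone horns. Its hormone horns in gilts 36, 38, 40, 41, 44 and 47 read -7.68, -6.80, -8.40, -9.28, -8.87 and -2.45, and its placebo horns -8.01, -6.60, -8.91, -9.43 and -5.21 in gilts 36, 38, 41, 44 and 47. Both horns of gilt 47 were far above every other array, and the difference from control gilts, 0.93 ± 0.87, did not pass and was -0.03 without gilt 47. The medians of hormone and control horns were close, at -8.04 and -8.08. No fold over control was given for MMP1, because most hormone horns were not well above background either. MMP3, stromelysin 1, gave 0.24 ± 0.17 (adjusted p = 0.410) and MMP9, gelatinase B of neutrophils, 0.21 ± 0.15 (adjusted p = 0.400). The other MMP9 probe gave 1.75 ± 0.59 (adjusted p = 0.0584). MMP1, MMP3 and MMP12 lie side by side in the RefSeq table of Sscrofa11.1.

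TIMP1, an inhibitor of most MMPs, read 4.35 to 5.34 (median 4.62) in control horns, 4.93, 5.66, 5.73, 4.61 and 7.55 in the placebo horns of gilts 36, 38, 41, 44 and 47, and 4.86 to 7.22 (median 5.97) in hormone horns. Gilt 47 was highest in both horns, and 4 of 6 hormone horns were above every control horn. The difference of 1.23 ± 0.43 did not pass (adjusted p = 0.0713), while its 2 dimmer probes passed at 1.82 and 1.86 (adjusted p = 0.0284 and 0.0293).

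ADAMTS8, a secreted protease of the ADAMTS family with antiangiogenic activity, showed the largest difference of the 33 genes. It read -5.09 to -3.28 (median -3.87) in control horns and -2.36 to -0.42 (median -1.01) in hormone horns, with no overlap. The placebo horns of gilts 36, 38, 41, 44 and 47 read -3.43, -2.19, -1.63, -4.16 and -0.56, so that gilts 38, 41 and 47 were above every control horn and gilts 36 and 44 were not. Gilts 36 and 44 were the treated gilts scanned on day 1, so this split cannot be told apart from scan day. The placebo difference was 0.21, 2.78 and 2.13 on days 1, 2 and 3. The difference was 2.77 ± 0.60 (adjusted p = 0.00836), or 6.83-fold, in hormone horns and 1.58 ± 0.61 (adjusted p = 0.130) in placebo horns. Leaving out any gilt kept the hormone difference between 2.45 and 2.98 with an adjusted p of at most 0.0478.

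Of the other 5 genes of this class none passed. ADAMTS1, which cleaves versican and is induced by progesterone in reproductive tissues, gave 0.17 ± 0.24 (adjusted p = 0.697). ADAM10, a sheddase of membrane proteins, gave 0.34 ± 0.17 (adjusted p = 0.208), and ADAM17, which releases TNF and EGF receptor ligands, 0.28 ± 0.20 (adjusted p = 0.381). Both other ADAM17 probes passed, at 0.59 (adjusted p = 0.0320) and 0.92 (adjusted p = 0.00463). In placebo horns against control gilts these 2 probes gave 0.60 and 0.93, and 1 passed (adjusted p = 0.0203). Between hormone and placebo horns both gave -0.01. ADAM2 and ADAM3A, known from sperm, gave -0.15 ± 0.22 and 0.55 ± 0.28.

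**Figure D4:**
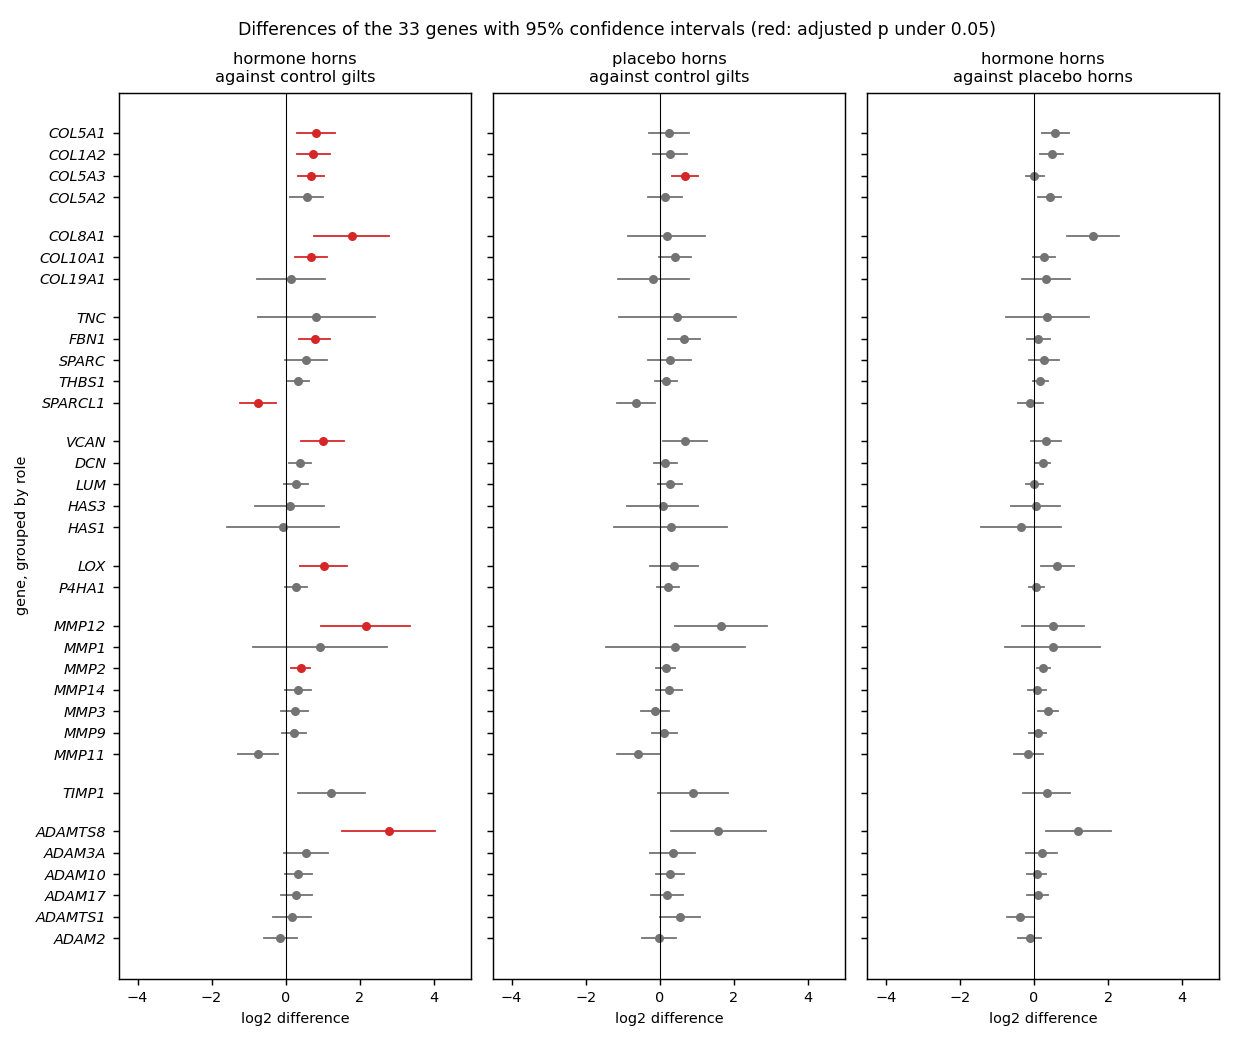
Log2 differences of the 33 genes with 95% confidence intervals in 3 comparisons, grouped by role from fibrillar collagens at the top to ADAM and ADAMTS proteases at the bottom; red marks genes that passed. There are 12 red genes in hormone horns against control gilts, 1 in placebo horns against control gilts and 0 between the horns.

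Placebo horns against control gilts asked whether matrix genes also differed in the horn that received vehicle. COL5A3 passed and the other 32 genes did not, a share of 3.03% against 4.49% of named genes (3.65% higher and 0.831% lower) and 4.42% of all probes (2.46% higher and 1.96% lower). The median difference of the 33 genes was 0.27, against 0.07 over named genes, and 28 of the 33 values were above 0, against 58.3% of named genes. By brightest probe COL5A3 was also the single gene whose 5 placebo horns all lay above all 8 control horns (5.18% of named genes did). In none of the 33 did the placebo horns all lie below (1.2%). A dimmer DCN probe, with control horns at most 5.86 and placebo horns at least 6.04, showed no overlap either. The same held for dimmer probes of ADAM17 and P4HA1. The COL5A3 call was lost without gilt 9, 14, 28, 36, 38, 41 or 47. With arrays centred on RefSeq-named probes the 33 genes' median was 0.02 against -0.17 over named genes. On that scale COL5A3 did not pass (0.43, adjusted p = 0.0852) and SPARCL1 passed lower (-0.90, adjusted p = 0.0345). The probes passing rose from 1728 to 5472, and 10.2% of them were higher, against 55.7% on the main scale. Hormone and placebo horns were both set against the same control horns, so the values of the 2 comparisons are not independent.

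Hormone horns against placebo horns, the comparison between horns of the same gilts, gave 0 genes that passed by limma, with 10 of 33 (30.3%) at an unadjusted p under 0.05, against 9.92% of all probes. Of the 3010 named genes 0% passed, and of all probes 0.00256%. The median difference of the 33 genes was 0.23, against 0.07 over named genes. COL8A1 gave the smallest adjusted p, at 1.59 ± 0.34 (adjusted p = 0.107), or 3.01-fold. The hormone horn exceeded the placebo horn by 2.05, 0.08, 2.33, 2.52 and 1.14 in gilts 36, 38, 41, 44 and 47, so that gilt 38 showed almost no difference between its horns.

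Besides COL8A1, the hormone horn was higher in all 5 gilts for COL1A2, LOX, MMP2 and MMP3, and it was lower in all 5 for ADAMTS1. That makes 5 and 1 of the 33 genes, where 6.31% and 2.46% of named genes showed the same. LOX differed by 0.16, 0.90, 0.10, 1.37 and 0.55 in gilts 36, 38, 41, 44 and 47, for a difference of 0.63 ± 0.21 (adjusted p = 0.354). COL1A2 differed by 0.29, 0.50, 0.02, 1.10 and 0.71 (0.48 ± 0.15, adjusted p = 0.306). Gilt 44 had the largest horn difference in COL8A1, LOX, COL1A2 and MMP2, and gilt 41 the smallest in LOX, COL1A2 and MMP2. MMP3 differed by 0.38 ± 0.12 (adjusted p = 0.339), MMP2 by 0.25 ± 0.09 (adjusted p = 0.367) and ADAMTS1 by -0.37 ± 0.17 (adjusted p = 0.497). ADAMTS8 was not of this kind, with 2.49, -0.16, 1.21, 3.08 and -0.23 in gilts 36, 38, 41, 44 and 47. The gilts whose hormone horn was not higher in ADAMTS8, 38 and 47, had placebo horns above every control horn, as did gilt 41.

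**Figure D5:**
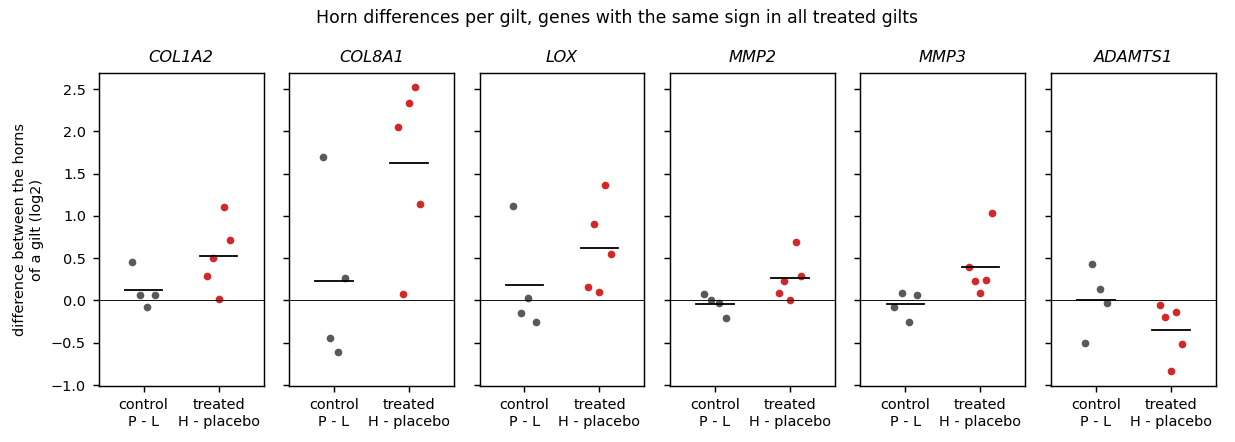
Difference between the horns of each gilt (log2) for the 6 genes with the same sign in all 5 treated gilts, as P minus L horn in the 4 control gilts (grey) and hormone (H) minus placebo horn in the 5 treated gilts (red); black bars are means. COL8A1 in treated gilts spans 0.08 to 2.52, and control gilt 9 reaches 1.70.

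The vehicle horns of control gilts show how far horns of an animal differ without hormone. In P against L horns 0 genes passed by limma, 0 of the 33 had an unadjusted p under 0.05, and 0% of named genes and of all probes passed. Single gilts still differed widely. COL8A1 was 1.70 higher in the P horn of control gilt 9 and differed by -0.44, -0.61 and 0.27 in gilts 14, 28 and 46. In the same gilt TNC was 3.27 higher, LOX 1.12 and ADAMTS8 0.86. The level of 4 smooth muscle markers, as the median over the 4 of the log2 value minus the control mean, was 2.34 in that P horn, the highest of all arrays, and -0.92 in the L horn. Its part in these differences was not tested.

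The horn difference of treated gilts was also set against that of control gilts, in an interaction term. By limma 0 of the 33 genes passed (0% of named genes and of all probes), and 4 (12.1%) had an unadjusted p under 0.05, against 3.23% of all probes. These were COL8A1 at 1.36 ± 0.51, COL5A1 at 0.59 ± 0.26, MMP3 at 0.42 ± 0.19 and MMP2 at 0.29 ± 0.13, all with an adjusted p of 0.999.

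Over the 33 genes, the highest array was a hormone horn in 20, a placebo horn in 11 and a control horn in 2. Gilt 47 held it in 12 genes, gilts 36 and 44 in 6 each. These counts were not made over all named genes. The level of the 33 genes, as the median over genes of the log2 value minus the gene's control mean, was -0.23 to 0.12 in control horns, -0.02 to 0.39 in placebo horns and 0.20 to 0.68 in hormone horns. Over the named genes the same level was -0.05 to 0.03 in control, 0 to 0.13 in placebo and 0.01 to 0.34 in hormone horns.

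A companion list of 73 other matrix genes held 28 that were measured. In hormone horns against control gilts 8 of them passed, all higher, with a median difference of 0.51 over the 28. Of the named genes 15.1% passed (12.7% higher), with a median of 0.17. The 8 companion genes were TGFB3, a TGF-beta ligand (1.44 ± 0.39), TIMP2, also an MMP inhibitor (1.15 ± 0.28), the hyaluronidase HYAL2 (0.95 ± 0.20), BSG, an inducer of MMPs (0.90 ± 0.17), the TGF-beta receptor TGFBR1 (0.79 ± 0.21), the collagen chaperone SERPINH1 (0.62 ± 0.18), the collagen-degrading cathepsin CTSK (0.60 ± 0.14) and the integrin ITGB5 (0.44 ± 0.13). Their adjusted p ran from 0.00523 for BSG to 0.0325 for SERPINH1. In placebo horns HYAL2, TIMP2 and CTSK passed, at 1.00, 1.08 and 0.54, where 4.49% of named genes passed. Between the horns 0 of the 28 passed.

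Markers of other cell types moved in the same comparison. In hormone horns against control gilts the stromal marker THY1, the single measured gene of 7 listed, passed at 2.40 ± 0.67 (adjusted p = 0.0276), and all 3 measured neutrophil markers, S100A8, S100A9 and S100A12, passed higher with a median of 5.65. Endothelial and epithelial markers passed higher in 3 of 4 each, with medians of 0.71 and 0.82, and macrophage markers in 1 of 5 (CD14, 1.42), with a median of 1.10. Of the T and NK cell markers 1 of 9 passed, GZMB, which was lower (-0.94) while the median of the 9 was 0.71, and 0 of 4 smooth muscle (median 0.55) and 0 of 3 B and plasma cell markers (median 0.80) did. The neutrophil level, again the median over genes of the value minus the control mean, was -0.90 to 0.92 in control horns, -0.75 to 7.83 in placebo horns and 2.05 to 8.10 in hormone horns. The macrophage level was -0.38 to 0.34 in control horns, and in gilt 47 it was 3.02 in the placebo and 2.90 in the hormone horn, against at most 1.45 elsewhere. The T and NK cell level of gilt 47 was 2.64 and 2.68 in these horns, against at most 0.84 elsewhere. Its B and plasma cell level was 3.32 and 3.07, against at most 1.4 elsewhere. Among hormone horns gilt 47 was the highest in ADAM10, ADAM17, COL5A2, FBN1, LOX, MMP1, MMP3, MMP12, TIMP1 and VCAN. It was the lowest in ADAM2, ADAMTS1, HAS1, MMP9 and THBS1. COL19A1 aside, its placebo horn was the highest placebo horn in ADAM2, ADAM17, ADAMTS8, COL8A1, FBN1, LOX, MMP1, P4HA1, TIMP1, TNC and VCAN. That horn was the lowest in COL1A2, HAS1, HAS3, LUM, SPARC and SPARCL1 and level with the lowest in COL5A2. The part of these cells in the matrix results was not tested.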

How the data were processed

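Endometrial RNA was measured on 19 one-colour Agilent arrays from 10 gilts. The deposited files give spot intensity as the scanner software wrote it, per the file headers Agilent Feature Extraction 10.7.3.1, with background removed inside each array and no scaling across arrays. The submitters' processing notes name version 9.1. The authors' deposited table of log2 values was tried as an alternative, and how it was normalized was not stated in the sources.

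Control spots and 893 outlier-flagged values were left out, and spots of a probe were averaged. Each processed signal was divided by the 75th percentile of its own array and put on a log2 scale. Tests covered 39074 of 43603 probes, those called well above background by the software on 4 or more arrays and with at least 2 unflagged arrays in each group. The test was limma 3.58.1 (R 4.3.3, statmod 1.5.0) on all 19 arrays, with the 4 groups as fixed effects, the gilt as a random block (correlation 0.536), eBayes with a trend, two-sided tests and Benjamini-Hochberg adjustment. Because of the block, a difference can depart from that of the printed group values. The 33 genes were named through RefSeq accessions (6876 probes matched 1 gene, 6768 of them with a symbol), and the brightest probe of a gene was used; 16 genes had several. Saturated spots numbered 0, and between 79.1% and 88.4% of spots per array were well above background; the number of arrays limits the precision.

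Horns with the same gilt number came from the same animal, per the labels. Their deviations from the group means correlated at 0.334 to 0.795 in treated gilts (other gilts at most 0.143) and at 0.403 to 0.628 in control gilts (at most 0.0185). Both horns of a gilt also share a slide. The 33 genes, their roles and the companion and marker lists were chosen with earlier results of these data known. Genes were named where they passed in any comparison, or had the largest difference or the highest signal of their role. Per-array values were given for up to 3 genes of a role with the smallest adjusted p, and for THBS1, MMP11, MMP1 and further genes after their values were seen.

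Alternatives covered background correction, scaling, filter, probe choice, block, slide, scan day, horn mark, the samples in the fit and leaving out each gilt. On simulated data with the same design, the fit recovered 59% of probes changed by 1 and 94% of probes changed by 2 on the log2 scale in hormone horns against control gilts.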

Additional observations from a re-analysis of the deposited data

Results flagged for a closer look

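In 131 groups of 4 to 6 arrays, 1 array was set against the others of its group for each of the 33 genes by Dixon's test, and 8 values stood apart. Chance gives about 1 in 20 groups. The hormone horn of gilt 47 stood apart in MMP1, at -2.45, and the hormone horn of gilt 40 in COL10A1, at -1.84. The other 6 values were in control horns. Among P horns these were FBN1 in gilt 14 at -1.80, ADAM2 in gilt 14 at -4.08, DCN in gilt 46 at 7.23 and LUM in gilt 9 at 3.67. Among L horns they were MMP9 in gilt 28 at 1.91 and COL19A1 in gilt 46 at -6.70.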

How the results depend on the processing

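Of the 33 genes, 12 passed in hormone horns against control gilts and 1 in placebo horns against control gilts. Leaving out a gilt gave 1 to 11 genes in the first comparison and 0 to 1 in the second. In the first, 5 genes passed with centring on RefSeq-named probes, 7 with the control gilts' horns averaged, 7 with the compared groups only, and 0 within each of scan days 1, 2 and 3. In the second, 2 genes passed with the mean of all probes of a gene, 4 with slide as a term, and 0 with control horns averaged, with the compared groups only, with horn mark as a term, or within any scan day. Without the replicate block, 17 genes passed in the first comparison and 3 in the second; with the replicate block as a fixed effect, 0 passed between the horns of treated gilts and 0 in the horn difference of treated against control gilts. Between hormone and placebo horns, between control horns and in that horn difference, 0 genes passed under each alternative run. Over all 33 genes, 2266 of 2586 alternative values kept their direction and their side of the threshold, 146 lost a call, 26 gained one, 148 with no call in either fit changed sign, and 0 called values turned direction. The scanner files analysed here were used without a mean signal column, so normexp ran on median signals. Why the counts moved was not tested; within-day fits and leave-one-out fits hold fewer arrays.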
